A study of Oryza sativa with 4 samples.

Results

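Aquaporins, the membrane channels for water and small uncharged solutes, were followed in the flag leaf collar of rice. Members were the probe sets whose single annotated gene carried a PIP, TIP, NIP or SIP name with a pair of numbers. The rule found 31 of the 57381 probe sets on the Affymetrix Rice Genome array, and they stand for 25 of the 17905 genes with a probe set of their own. PIP had 13 probe sets for 10 genes, TIP had 11 for 8 genes, NIP had 5 for 5 genes and SIP had 2 for 2 genes. PIP2-3, TIP5-1, NIP1-2 and NIP3-3 are in the gene table under the same rule and had no probe set assigned here.

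The groups were lc1 mutant plants (2 arrays) and wild-type plants (2 arrays). The tissue was a piece of 1 cm around the lamina joint, the hinge between blade and sheath. The design text calls the arrays of a genotype biological replicates, and neither the labels nor that text give the lc1 allele, the cultivar, the plants' age or whether plants were pooled. As background, lc1 is known as a line with a wide leaf angle in which GH3.1, an enzyme that joins auxin to amino acids, is overexpressed. The GH3.1 probe set had a scaled signal of 463.5 and 449.2 in lc1, against 1.09 and 9.11 in the wild type, which matches the genotype labels.

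Plant aquaporins fall into several classes. PIPs sit in the plasma membrane and TIPs in the vacuolar membrane, and both set how fast water enters and leaves a cell. NIPs resemble nodulin 26 of soybean and include carriers of silicon and boron, and SIPs are small channels that were located in the endoplasmic reticulum in Arabidopsis. The lamina joint bends the blade outward as cells on its upper side elongate, which needs water uptake into growing vacuoles.

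Signals are the deposited MAS 5.0 values, scaled so that the median tested probe set of each array was 74.7. The factors were 0.840 and 1.07 for the lc1 arrays and 1.09 and 1.01 for the wild-type arrays. A probe set was taken as above background if it exceeded its array's floor, the 95th percentile of 23 Tag and TrpnX control probe sets. The floor was 11.6 and 13.8 in lc1 and 9.88 and 12.0 in the wild type. The 5-prime to 3-prime signal ratio of the glyceraldehyde phosphate dehydrogenase controls, a sign of RNA integrity, was 0.246 and 0.138 in lc1 and 0.164 and 0.236 in the wild type, so it differed within both genotypes. The 4 lamina joint and ligule markers matched here (LG1, IBH1, BU1 and LIC) were above the floor on every array, and their summed signal was 342.9 and 386.4 in lc1, against 413.6 and 522.3 in the wild type. The markers did not move as one. IBH1 and LIC were lower on both lc1 arrays, LG1 overlapped between genotypes, and BU1 overlapped with a log2 difference of 0.27 ± 0.36 towards lc1. The sums of 5 photosynthesis genes were 15597 and 20202 in lc1 and 16892 and 17461 in the wild type, and overlapped. Of 4 seed endosperm markers, waxy and GLUA2 were above the floor and GLUA1 and RP6 under it on all arrays, with sums of 258.8 and 255.4 in lc1, against 327.2 and 196.2 in the wild type. Of 2 root markers, IRT1 was above the floor and Lsi2 under it on all arrays, with sums of 40.4 and 59.3 in lc1, against 48.5 and 66.7 in the wild type. Of 7 anther genes, only MTR1 was above the floor on every array, and RAFTIN1 and MADS3 were under it on all arrays. The sums of the 7 were 158.4 and 206.6 in lc1, against 154.5 and 94.6 in the wild type. MTR1 alone made up most of each sum, with 118.9 and 148.9 in lc1, against 108.9 and 74.5 in the wild type. The part of these tissues in the differences below was not tested. RNA came from whole tissue, so fewer cells of a type and less RNA per cell cannot be told apart.

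No aquaporin passed the test of lc1 against wild type. In limma's moderated test with Benjamini-Hochberg adjustment over 34355 probe sets, 0 of the 28 aquaporin probe sets tested were called at an adjusted p under 0.05, beside 20 probe sets (0.0582%) on the whole array. At an unadjusted p under 0.05 there were 5 aquaporin probe sets, 4 higher in lc1 and 1 lower, where 8.43% of all tested probe sets met that threshold. The 5 were PIP2-5, PIP2-4, TIP2-1 and TIP2-2, which were higher in lc1, and TIP4-2, which was lower. Each of them had both lc1 arrays on one side of both wild-type arrays. Values are given below for each, with the difference on the log2 scale as lc1 minus wild type and its standard error from the fit over 2 arrays per genotype.

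**Figure D1:**
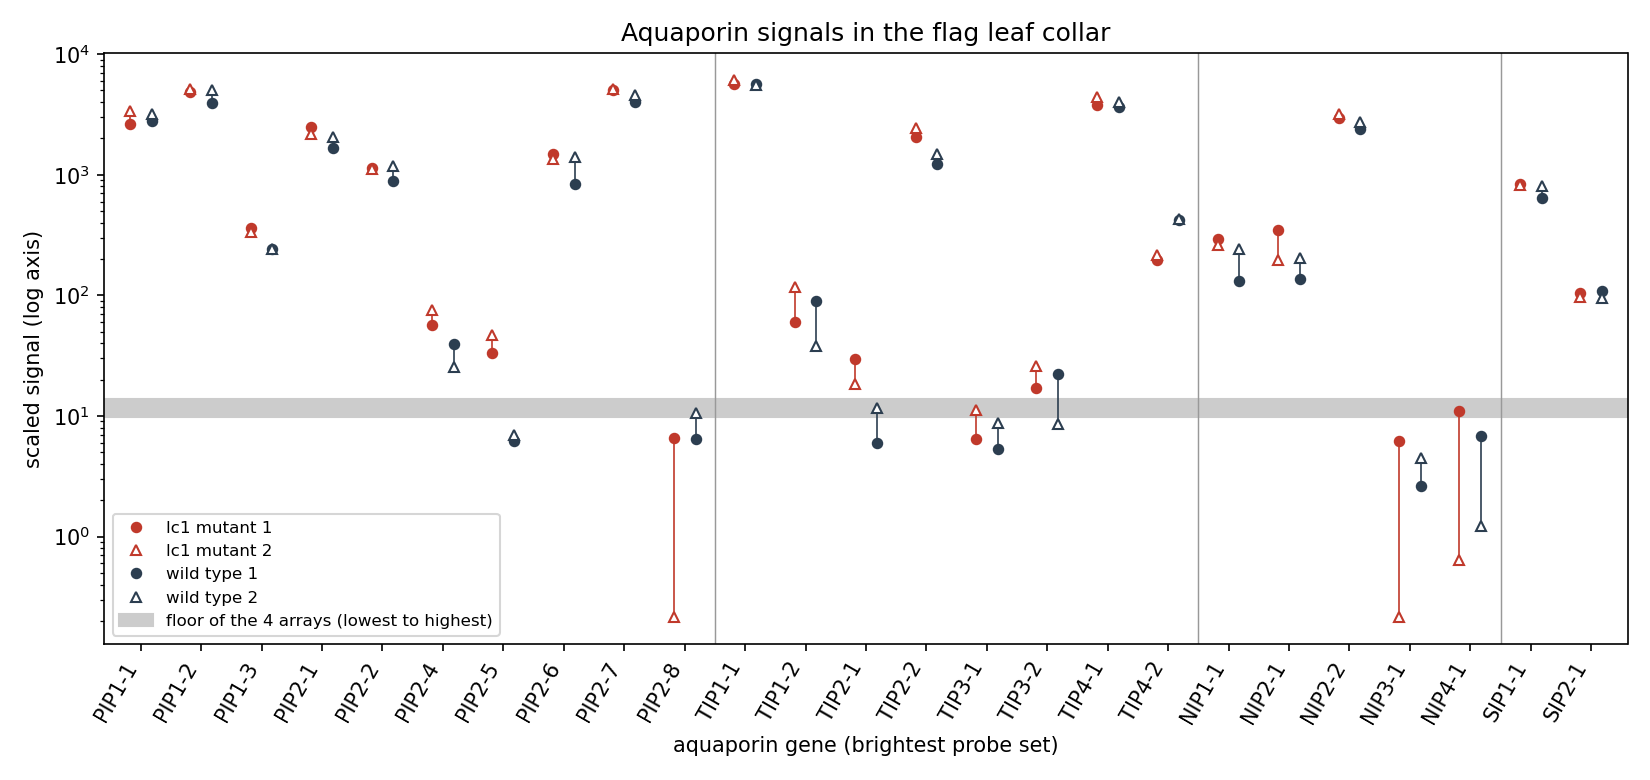
Scaled signal of each aquaporin gene's brightest probe set (log axis) on the 2 lc1 arrays (red, left of each pair) and the 2 wild-type arrays (dark, right). Circles are replicate 1 and triangles replicate 2, lines join the replicates, and the grey band spans the floors of the 4 arrays. PIP2-5 and TIP2-1 lie above the band in lc1 and in or under it in the wild type, and TIP4-2 is lower on both lc1 arrays.

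Among the PIP1 channels, which in maize need a PIP2 partner to reach the plasma membrane, the 2 brightest genes did not separate the genotypes. PIP1-2 had a scaled signal of 4820 and 5176 in lc1, against 3950 and 5067 in the wild type. PIP1-1 had 2660 and 3361 in lc1, against 2806 and 3217 in the wild type. The genotypes overlapped for both genes. The difference was 0.16 ± 0.15 for PIP1-2 (95% interval -0.19 to 0.51, limma adjusted p = 0.797). For PIP1-1 it was -0.01 ± 0.17 (95% interval -0.39 to 0.38, limma adjusted p = 0.995), with the sign turned to 0.14 in the signals as deposited. PIP1-3, a water channel known from studies of drought and chilling in rice, had 359.4 and 336.5 in lc1, against 243.6 and 240.1 in the wild type. The genotypes did not overlap, with lc1 higher by 0.52 ± 0.25 (limma adjusted p = 0.618).

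PIP2 channels carry water by themselves. PIP2-7, the brightest of them, had a scaled signal of 5007 and 5179 in lc1, against 4011 and 4552 in the wild type. The arrays did not overlap, and the difference was 0.25 ± 0.13 (limma adjusted p = 0.644). PIP2-1, a major water channel of the rice plasma membrane, had 2503 and 2176 in lc1, against 1674 and 2061 in the wild type, on its brightest probe set. That difference was 0.33 ± 0.18, again without overlap (limma adjusted p = 0.656). The other probe sets of PIP2-1 disagreed in sign, at 0.25 ± 0.16 and -0.09 ± 0.23.

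The widest difference in the family was that of PIP2-5, a water channel described mainly from roots. PIP2-5 had 33.2 and 46.6 in lc1, against 6.24 and 6.98 in the wild type. Both wild-type signals were under the floor and both lc1 signals were above it. The mean signal was therefore at least 3.61-fold higher in lc1, with only a bound for the wild type. That bound sets the mean log2 signal of lc1 against the mean log2 floor of the wild-type arrays, and the same was done below. It leaves out the spread between replicates, so it is not a lower confidence limit. It also depends on where the floor is set. With the highest control as the floor, 13.2 and 15.7 in the wild type, it would be smaller. The fit gave 2.58 ± 0.48 on the log2 scale (95% interval 1.48 to 3.67, limma unadjusted p = 0.000485, adjusted p = 0.147). With the replicate number as a block the adjusted p was 0.00296, although the numbers were not shown to pair the arrays. On a scale of log2(signal + 16), which damps low signals, the difference was 1.30. PIP2-4 was measured above the floor on all 4 arrays, with 57.1 and 75.5 in lc1, against 39.2 and 25.5 in the wild type. It was 2.08-fold higher in lc1, a log2 difference of 1.05 ± 0.37 (limma adjusted p = 0.49).

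PIP2-4, PIP2-5 and PIP2-1 lie next to each other in this order on chromosome 7 in the RefSeq gene table, with 0 protein-coding genes between neighbours. On their brightest probe sets, all 3 had separated genotypes with lc1 on the higher side. Of the 10 protein-coding genes on each side of the trio, 8 were tested. Their differences were between -3.21 and 0.94 with a median of 0.08, and the genotypes did not overlap in 2 that were higher and 3 that were lower in lc1. Such separation was seen with lc1 higher in 28.8% and lower in 12.4% of all tested genes. The other PIP2 genes were PIP2-2 at 0.15 ± 0.21, with the sign turned to -0.02 after quantile normalization, and PIP2-6 at 0.38 ± 0.25. Both overlapped between genotypes. The dimmer probe set of PIP2-2 gave -0.26 ± 0.47. The PIP2-6 difference was 0.0121 without wild type 1 and 0.75 without wild type 2. PIP2-8 was under the floor on all 4 arrays and was not tested.

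**Figure D2:**
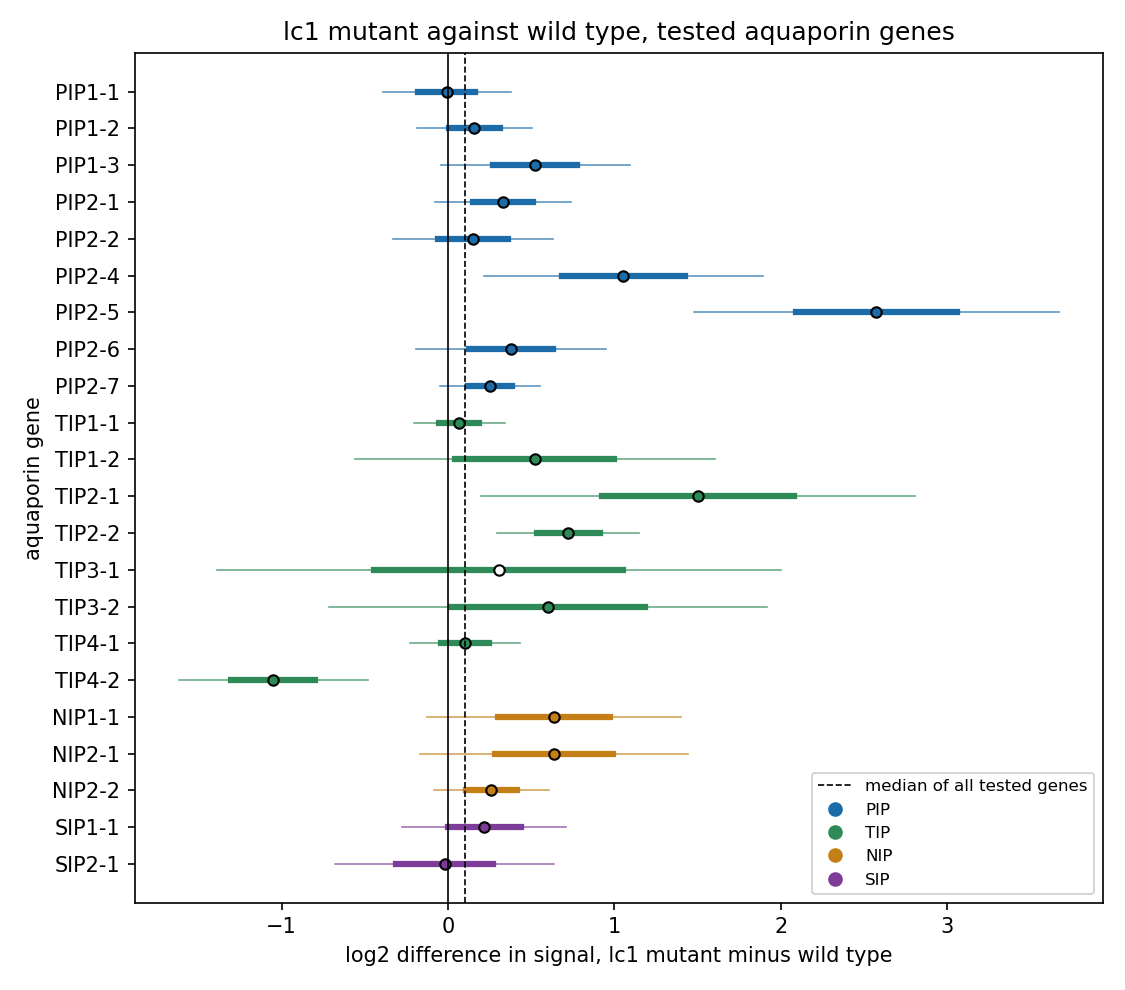
Log2 difference in scaled signal, lc1 minus wild type, for the 22 tested aquaporin genes, by class. Points are the limma estimates, thick bars the standard error and thin bars the 95% interval over 2 arrays per genotype, the hollow point is a gene under the floor on all arrays, and the dashed line is the median of all tested genes (0.10). PIP2-5 lies farthest to the right at 2.58 and TIP4-2 farthest to the left at -1.05.

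TIP genes lay on both sides of 0, from -1.05 to 1.51. TIP1-1, the main water channel of the vacuole in vegetative tissue, had the highest wild-type signal of all aquaporins, with 5669 and 6119 in lc1, against 5655 and 5577 in the wild type. Its difference was 0.07 ± 0.12 (95% interval -0.20 to 0.34, limma adjusted p = 0.896). It was -0.04 after quantile normalization and -0.06 after trimmed-mean scaling, and a further probe set of TIP1-1 gave -0.10 ± 0.16. TIP4-1 had 3785 and 4389 in lc1, against 3620 and 3983 in the wild type. The TIP4-1 arrays overlapped, with a difference of 0.10 ± 0.15 (limma adjusted p = 0.866) that turned to -0.05 after quantile normalization and to -0.02 after trimmed-mean scaling. The dimmer probe set of TIP4-1 gave -0.03 ± 0.43.

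TIP2 channels carry ammonia as well as water in Arabidopsis and wheat, and both rice members were higher in lc1. TIP2-2 had 2056 and 2461 in lc1, against 1239 and 1499 in the wild type. All lc1 values were above all wild-type values, at 1.65-fold or 0.72 ± 0.19 on the log2 scale (limma unadjusted p = 0.0040, adjusted p = 0.295). TIP2-1 had 29.7 and 18.5 in lc1, against 5.91 and 11.5 in the wild type. Both wild-type signals were under the floor, so the mean TIP2-1 signal was at least 2.15-fold higher in lc1. This bound again leaves out the spread between replicates and depends on where the floor is set. The fit gave 1.51 ± 0.58 (95% interval 0.20 to 2.81, limma adjusted p = 0.539). On the log2(signal + 16) scale that difference was 0.69. The dimmer probe set of TIP2-1 overlapped between genotypes, with 6.47 and 16.8 in lc1, against 1.97 and 12.9 in the wild type.

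TIP4-2 was the only tested aquaporin gene whose arrays separated with lc1 lower. It had 196.8 and 214.6 in lc1, against 420.1 and 431.3 in the wild type. The wild type was 2.07-fold higher, a log2 difference of -1.05 ± 0.25 (limma unadjusted p = 0.0024, adjusted p = 0.257). The difference stayed between -1.18 and -0.90 under the alternatives, with adjusted p between 0.0554 and 0.765. TIP4-1, the other member of its subgroup, was at 0.10 on its brightest probe set. The probe sets of TIP4-2, TIP2-2 and NIP2-2 carry the _x suffix, with which Affymetrix marks probes that can also match other transcripts, so a share of other genes in their signals was not tested. The same holds for the brightest probe sets of TIP2-1, PIP2-2 and TIP3-1, whose _s suffix marks probes shared by several transcripts.

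The remaining TIP genes overlapped between genotypes. TIP1-2 spanned 59.9 to 116.4 in lc1 and 37.7 to 89.6 in the wild type. TIP3-1 and TIP3-2 belong to a subgroup known from seeds. TIP3-1 was under the floor on all 4 arrays, and TIP3-2 spanned 17.1 to 25.8 in lc1 and 8.50 to 22.4 in the wild type.

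**Figure D3:**
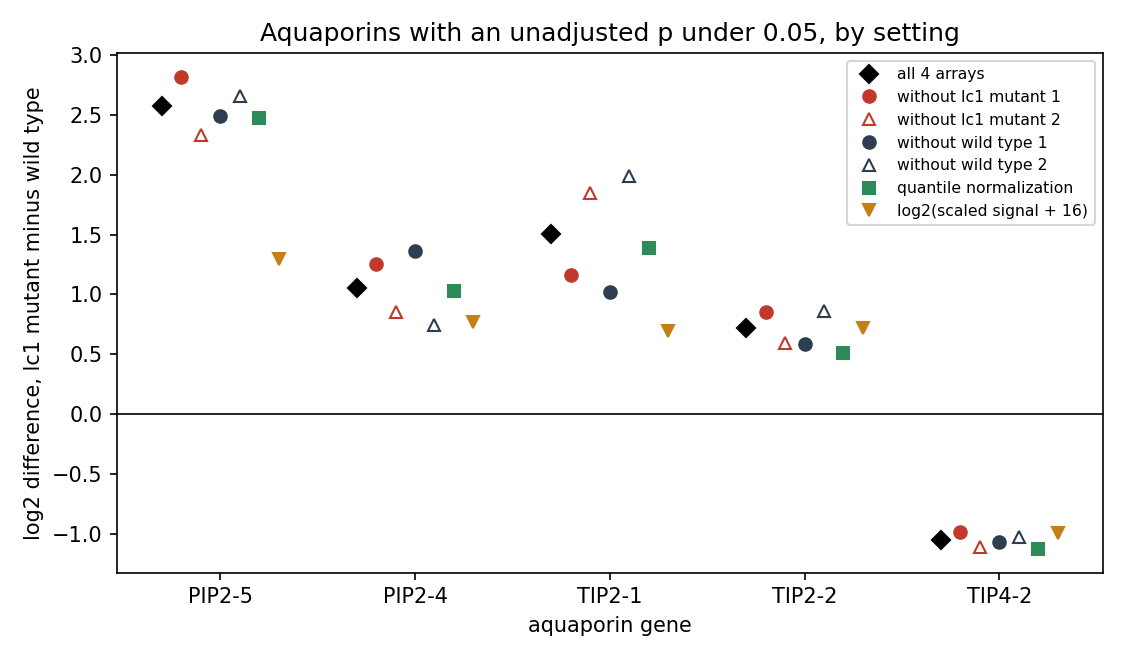
Log2 difference, lc1 minus wild type, of the 5 aquaporins with an unadjusted p under 0.05, with all 4 arrays (diamonds), without each array in turn (circles and triangles), after quantile normalization (squares) and on the log2(scaled signal + 16) scale (inverted triangles). The arrays of these genes separate by genotype, so leaving out an array or adding 16 could not change a sign. Each gene kept its sign after quantile normalization, and PIP2-5 (2.58 to 1.30) and TIP2-1 (1.51 to 0.69) are smaller with 16 added.

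Among the NIPs, the silicon channels were measured on all arrays. NIP2-2, known as Lsi6, which unloads silicon from the xylem in leaves and nodes, was the brightest with 2972 and 3168 in lc1, against 2400 and 2730 in the wild type. The arrays did not overlap, at 0.26 ± 0.15 (limma adjusted p = 0.671). NIP2-1, known as Lsi1, the silicon uptake channel described from rice roots, had 350.2 and 196.0 in lc1, against 137.9 and 205.4 in the wild type. These values overlapped, at 0.64 ± 0.36 (limma adjusted p = 0.659). Leaving out lc1 mutant 1 gave 0.22 for NIP2-1 and leaving out lc1 mutant 2 gave 1.06, while without wild type 1 it was 0.35 and without wild type 2 it was 0.93. NIP1-1 had 290.6 and 263.9 in lc1, against 130.5 and 242.5 in the wild type, without overlap, at 0.64 ± 0.34 (limma adjusted p = 0.645). Without wild type 1 the NIP1-1 difference was 0.19. NIP3-1, a boron channel whose loss causes dwarf and tillering phenotypes in rice, had 6.22 and 0.215 in lc1, against 2.63 and 4.45 in the wild type. All 4 NIP3-1 signals were under the floor, as were those of NIP4-1, and neither gene was tested.

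Both SIP genes were measured on all arrays. SIP1-1 had 845.6 and 827.7 in lc1, against 644.3 and 801.5 in the wild type, at 0.22 ± 0.22 without overlap (limma adjusted p = 0.804). SIP2-1 had 104.2 and 97.1 in lc1, against 108.4 and 95.9 in the wild type. It overlapped, at -0.02 ± 0.29 (95% interval -0.68 to 0.64, limma adjusted p = 0.992), and was at 0.13 in the signals as deposited.

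Levels in each class covered a wide range in both genotypes. Each level is that of a gene's brightest probe set, and probe sets of different genes do not measure RNA on one scale, so the order is a description. Mean signals of PIP genes ran between 3.38 and 5093 in lc1 (median 1274) and between 6.61 and 4509 in the wild type (median 1076). TIP genes had medians of 146.9 in lc1 and 244.7 in the wild type, with highest means of 5894 and 5616. Both TIP medians lie midway between TIP1-2 and TIP4-2, and 7 of the 8 TIP genes had a difference above 0. NIP genes had medians of 273.1 in lc1 and 171.6 in the wild type, with highest means of 3070 and 2565. SIP genes lay between 100.7 and 836.6 in lc1 and between 102.2 and 722.9 in the wild type. On both arrays of the genotype, 21 of 25 genes were above the floor in lc1 and 18 in the wild type. The genes above it on both lc1 arrays but not on both wild-type arrays were PIP2-5, TIP2-1 and TIP3-2, and 4 genes were under the floor on every array. This count depended on where the floor was set. Counted as probe sets, 26 of 31 were above the floor on both lc1 arrays and 23 on both wild-type arrays, and the counts were the same with the highest control as the floor. With the median control as the floor they were 28 in lc1 and 28 in the wild type, and the wild-type signals of PIP2-5 and of the brightest TIP2-1 probe set were then above it.

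The signs of the differences depended on the scaling. Of the 22 tested genes, 19 had a difference above 0, where 61.3% of all tested genes did. The count was 21 in the signals as deposited (75.7% of all tested genes), 16 after quantile normalization (50%) and 17 after trimmed-mean scaling (47.1%). The genotypes did not overlap in 12 of 22 genes, with lc1 higher in 11 and lower in 1, beside 28.8% and 12.4% of all tested genes. Overlap was counted with the scaling used only. The 11 include TIP1-1 at 0.07, whose sign turned after quantile normalization and after trimmed-mean scaling. The 4 higher and 1 lower genes at an unadjusted p under 0.05 stand beside 6.92% and 2.23% of all tested genes. The median difference was 0.32 over the tested aquaporin genes and 0.10 over the 16291 genes tested. By class it was 0.33 for PIP (9 genes), 0.41 for TIP (8 genes), 0.64 for NIP (3 genes) and 0.10 for SIP (2 genes). The TIP median difference lies midway between TIP3-1, which was under the floor on all arrays, and TIP1-2, whose genotypes overlapped. It was 0.10 with the filter at the 60th percentile and 0.19 with 16 added before the log. With untested members included, the medians were 0.29 for PIP, 0.26 for NIP and 0.26 for the whole family. Differences between classes were not tested. The members were not drawn at random and their arrays are shared, so these counts are descriptions.

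The class medians rested on single arrays to different degrees. Against the wild-type mean, lc1 mutant 1 gave a TIP median of 0.03 and lc1 mutant 2 gave 0.78. For NIP these values were 0.71 (lc1 mutant 1) and 0.31 (lc1 mutant 2), and for PIP they were 0.43 and 0.28. Without wild type 1 the medians were 0.16 for PIP, 0.19 for NIP and 0.17 for the whole family, and without wild type 2 the TIP median was 0.11. The family median also moved with the scaling, to 0.47 in the signals as deposited, 0.16 after quantile normalization and 0.19 after trimmed-mean scaling. The SIP median turned to -0.03 after trimmed-mean scaling.

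Replicates of a genotype differed by amounts close to many of these differences. Wild type 2 was above wild type 1 in 16 of 22 tested aquaporin genes, beside 46.5% of all tested genes. Of the lc1 arrays, lc1 mutant 2 was above lc1 mutant 1 in 13 of 22 genes, beside 58.5% of all tested genes. The genes with a genotype difference wider than the difference between the wild-type arrays included PIP2-5, TIP4-2 and TIP2-2. They also included TIP1-1, whose genotype difference was only 0.07. Those with a narrower one included TIP1-2, TIP3-2 and NIP1-1.

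**Figure D4:**
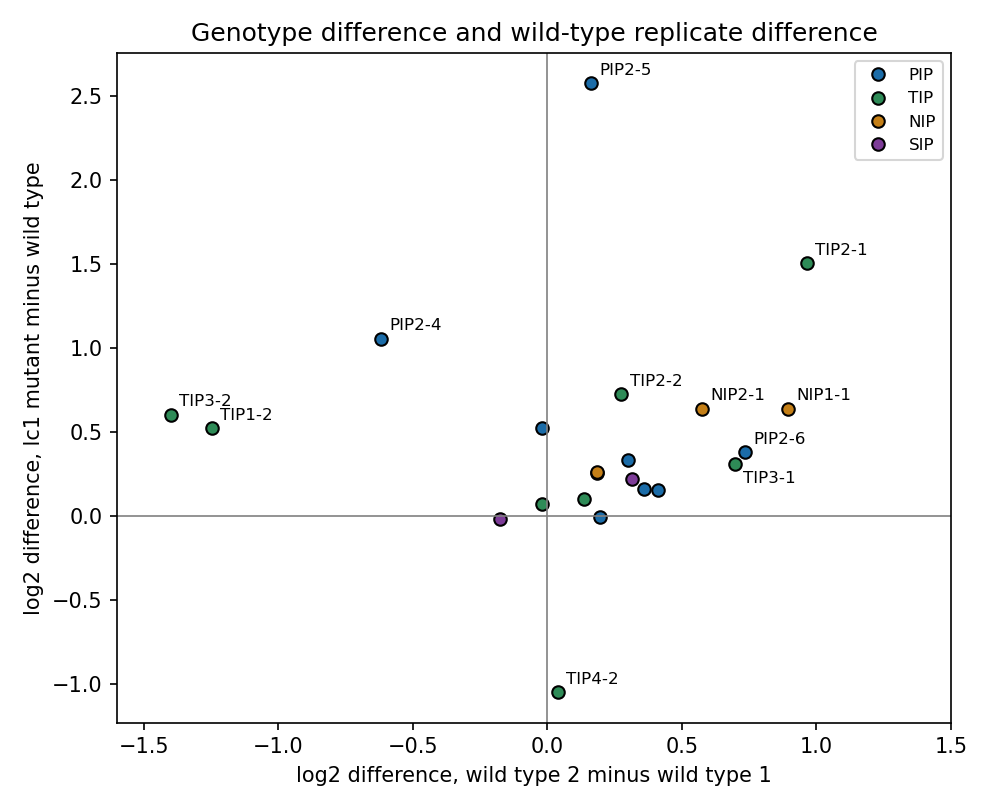
Log2 difference between genotypes (vertical, lc1 minus wild type) against the log2 difference between the wild-type arrays (horizontal, wild type 2 minus wild type 1) for the 22 tested aquaporin genes. PIP2-5 and TIP4-2 lie far from 0 on the vertical axis and near 0 on the horizontal one, and 16 of 22 genes lie right of 0.

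Genes outside the family were also followed. A list of potassium, ammonium and sucrose transporters, the silicon exporter Lsi2 and Casparian strip-like proteins had 63 genes on the array. It is called the transport list here, although 22 of its genes are Casparian strip-like. Of the 59 tested, 0 were called by limma at an adjusted p under 0.05, beside 0.0582% of all tested probe sets. A count of 0 is near that share and says little about the list. At an unadjusted p under 0.05, 3 were higher and 3 lower in lc1, beside 6.92% and 2.23% of all tested genes. The median difference of the 59 was 0.10, and the 8 ammonium transporters had a median of 0.24. HAK17, a potassium transporter by name, had 1822 and 1101 in lc1, against 463.1 and 721.3 in the wild type, a difference of 1.29 ± 0.30 (limma adjusted p = 0.248). Its arrays did not overlap, and its difference was 1.66 without lc1 mutant 2. HAK17 passed with the replicate block (limma adjusted p = 0.000701), under which 658 probe sets were called on the whole array. Without lc1 mutant 2, the differences were 1.17 for HAK1 and 1.59 for OsCASPL5B1, against 0.63 ± 0.32 and 0.69 ± 0.53 with all arrays. HAK1 had 1439 and 687 in lc1, against 629 and 653 in the wild type. OsCASPL5B1 had 183.2 and 52.3 in lc1, against 52.7 and 70.2 in the wild type, and overlapped. The genes OsCASPL1D1 at 1.23 ± 0.48 and OsCASPL1U2 at 0.86 ± 0.32 were higher in lc1 without overlap. The lower ones were OsCASPL2C1 at -0.70 ± 0.21, TPKB at -0.78 ± 0.33 and OsCASPL3A1. Both lc1 arrays of OsCASPL3A1 were under the floor, so the mean wild-type signal was at least 1.44-fold higher there. This bound also leaves out the spread between replicates and depends on where the floor is set. The OsCASPL3A1 fit gave -2.01 ± 0.74 (95% interval -3.69 to -0.33).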

How the data were processed

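Total RNA of flag leaf collars was hybridised as biotin-labelled copy RNA, per the labels. The authors deposited 1 linear intensity (signal) per probe set and array, made with Affymetrix Microarray Suite version 5.0 per the series' design text. R 1.8.0 is named in the submitters' processing notes. The deposited medians of non-control probe sets were 16.1 and 13.0 in lc1 and 11.8 and 12.1 in the wild type, so the arrays stood at different levels. Detection calls and the authors' own tests were not used here.

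Of 57381 probe sets, 123 controls were left out. The array annotation gave 1 gene to 22436 of the others, several to 95 and none to 34727, and the RefSeq gene table held all 22436 genes' identifiers. Values under 0.05 (18 were 0) were set to 0.05, and each array was scaled linearly to a common median over the tested probe sets. Probe sets with a mean log2 deposited signal under the 40th percentile (a signal of 5.96) were not tested, which left 34355. The log2 values were fitted with limma 3.58.1 (lmFit, eBayes with an intensity trend) in R 4.3.3, with a genotype term alone (2 residual degrees of freedom), 2-sided tests and Benjamini-Hochberg adjustment over all tested probe sets. The script was tested on simulated data. Only 2 arrays per genotype limit the precision. The standard errors, intervals and p-values draw on a variance trend over all tested probe sets as well as on each probe set's own arrays. The total was 8.97 degrees of freedom, of which 2 were residual. They therefore do not measure a gene's own spread between arrays alone.

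For each gene the probe set of highest mean log2 signal was used. Signals on every array are given for the 3 brightest wild-type genes of each class, for genes with an unadjusted p under 0.05 or a log2 difference of at least 1 whose genotypes did not overlap, and for members with a known rice role. The members, gene lists and markers were chosen with earlier results of these data known. From the transport list, 2 genes whose synonyms matched by spelling alone were dropped. Proton pumps, chloride channels and several other names on that list matched no gene with a probe set here.

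Replicates 1 and 2 share numbers across genotypes. The deviations of same-numbered arrays from their genotype means had a correlation of -0.04, so the numbers were not shown to pair arrays. Alternatives covered scaling, pseudocount, filter, floor, trend, the probe set used per gene, each array left out and the replicate block.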

Additional observations from a re-analysis of the deposited data

How the results depend on the processing

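The count of probe sets called on the whole array, 20, depended on the processing. It was 1 with signals as deposited, 4 after quantile normalization, 8 after trimmed-mean scaling, 53 with 16 added before the log, 4 without the filter, 46 with a filter at the 60th percentile and 0 without the intensity trend. It was between 11 and 1211 with 1 array left out and 658 with the replicate block. Of the aquaporins, 0 were called under every alternative except the replicate block, which called 1, PIP2-5, at the same difference of 2.58. The transport list had 0 to 3 genes called with 1 array left out and 1 with the block. The replicate block changed no other aquaporin call. Unadjusted p under 0.05 was met by 3 to 6 aquaporin probe sets over 12 alternatives. The counts of aquaporin probe sets above the floor were 28 in lc1 and 28 in the wild type with the median control as the floor, against 26 and 23. Of 260 recomputed differences of the 22 tested aquaporin genes, 241 kept sign and side of the threshold and 18 changed sign, and 13 genes never changed sign. The filter, trend and replicate block alternatives refit the same scaled values. They could not change a difference or its sign, so these counts overstate how stable the signs were. Sign changes came in the signals as deposited (PIP1-1 0.14, SIP2-1 0.13), after quantile normalization (PIP2-2 -0.021, TIP1-1 -0.0389, TIP4-1 -0.0537) and after trimmed-mean scaling (TIP1-1 -0.0566, TIP4-1 -0.0231). With 1 array left out, PIP1-1 was between -0.18 and 0.16, PIP1-2 between -0.0206 and 0.34, PIP2-2 between -0.0543 and 0.36, SIP2-1 between -0.11 and 0.069, TIP1-2 between -0.10 and 1.15, TIP3-1 between -0.10 and 0.71, TIP3-2 between -0.10 and 1.30, and TIP4-1 between -0.0047 and 0.21. The PIP median was 0.48 as deposited, 0.15 after quantile normalization and 0.16 to 0.48 without 1 array. The TIP median was 0.10 with the 60th percentile filter and 0.0282 to 0.78 without 1 array. The NIP median was 0.26 with no filter and 0.19 to 0.93 without 1 array. The SIP median was 0.25 as deposited, 0.0122 after quantile normalization, -0.0252 after trimmed-mean scaling and 0.07 to 0.13 without 1 array. The median of all aquaporins was 0.47, 0.16 and 0.19 under these 3 scalings and 0.17 to 0.37 without 1 array. The median tested probe set lay at 0.07 with the scaling used, 0.22 as deposited, -0.02 after quantile normalization and -0.05 after trimmed-mean scaling. The causes were not tested. Signals near the floor limit PIP2-5, TIP2-1 and the TIP3 genes.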
